A study of Mus musculus with 6 samples.

Results

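Cytosolic ribosomal protein genes encode the protein part of the ribosome, and 83 of them were counted among the 19954 genes of a single-nucleus RNA data set from mouse spinal cord. Members were chosen by symbol alone: every gene named Rpl or Rps followed by a digit, plus the stalk genes Rplp0 to Rplp2, without the S6 kinase genes, symbols marked as pseudogenes and Rps19bp1. The rule took 51 genes of the large subunit and 32 of the small subunit. Together they held 0.457% of the 18196810 unique molecular identifiers (UMIs, 1 per captured RNA molecule) in the table. GENCODE annotated 82 of the 83 as protein coding. The exception was Rpl6l, annotated as a processed pseudogene.

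The study compared 3 libraries named TESS, after an intervention that the labels do not spell out, with 3 named CON. The mice were C57BL/6, wild type, and paralysed in the legs after a severe thoracic contusion. They spent 30 min on a treadmill with TESS or without it. The design text says that agonists of the receptors 5-HT1a and D1 were present when TESS let the mice walk, and does not say whether the CON mice received them. The labels name the tissue as lumbar spinal cord, while the protocol describes dissection of the thoracic injury site, and neither ages nor separate animals are stated. P-values therefore measure the spread between these libraries, which may be technical.

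The table held 18514 nuclei, of which 6035 were neurons, where the design text states 20484 and 6171. Libraries held 2192 to 3780 nuclei and 1582104 to 4037976 UMIs, after loading of 5000 nuclei each. In 411 nuclei the barcode sequence also occurred in another library. CON replicates 1 and 2 and TESS replicate 1 carry batch number 3 in the metadata, and each of the other libraries has a batch number of its own. Levels are given as CPM, the UMIs of a gene or list scaled to a common total per class and library. Each major type defined by the authors was highest in its own marker list, at 12925 CPM for neuron markers in neurons, 25482 for oligodendrocyte markers, 7742 for astrocyte, 12859 for microglia, 6732 for oligodendrocyte precursor cell (OPC) and 12154 for endothelial markers in their own classes. Neuron markers stood at 796 to 2261 CPM in the other 5 types, and the source of those UMIs was not tested.

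Each ribosome joins a small subunit, which decodes the messenger RNA, to a large subunit, which forms peptide bonds, and most ribosomal proteins are needed in equal numbers. Their messenger RNAs are known as 5′ TOP messages: transcription usually starts at a C within a stretch of C and T, and the mTOR pathway controls their translation through this stretch. Their mature messengers are abundant in cytoplasm, whereas a nucleus holds newly made and unspliced transcripts together with whatever cytoplasmic RNA remained attached or free in the suspension.

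The start sequences of a few members are shown because the stretch is the hallmark of the family and because its presence differs between members that are described below. Each window spans 15 bases on either side of the annotated start, 5′ to 3′ on the gene's strand, from RefSeq on GRCm38.p6, with the longest run of C and T that opens with C in capitals.
Rps18 (chr17:33955651-33955680, minus strand): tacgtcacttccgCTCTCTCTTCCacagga
Rpl14 (chr9:120571502-120571531, plus strand): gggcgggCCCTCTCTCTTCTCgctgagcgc
Rps10 (chr17:27635230-27635259, minus strand): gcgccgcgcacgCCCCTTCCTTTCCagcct
Rpl22l1 (chr3:28805493-28805522, plus strand): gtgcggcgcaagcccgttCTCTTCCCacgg
Rpl7l1 (chr17:46782642-46782671, minus strand): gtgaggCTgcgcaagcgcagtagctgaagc
Rpl5 (chr5:107900513-107900542, plus strand): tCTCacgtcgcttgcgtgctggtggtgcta
Rps27 (chr3:90213634-90213663, minus strand): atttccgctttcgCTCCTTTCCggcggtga
Rps27rt (chr9:114982725-114982754, minus strand): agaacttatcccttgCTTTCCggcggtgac

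The run was 11 bases long in Rps18, 14 in Rpl14, 13 in Rps10, 8 in Rpl22l1 and 9 in Rps27. It was 6 in Rps27rt, 3 in Rpl5 and 2 in Rpl7l1, a gene named for its likeness to Rpl7. The printed windows are shorter than the stretch searched next, and Rpl5 has a run that meets the rule there, outside its printed window. Rps27rt and Rps27 shared a run of 38 identical bases that opens at the annotated start of Rps27rt and 1 base after that of Rps27, and the sequence before it differed. Promoter sequences of 62 of the 83 members were in the RefSeq table. A C followed by at least 7 further C or T within 30 bases of a start, on the gene's strand, was present in 33 of the 62 members (53.2%) and in 21.8% of the 13860 genes of the promoter table that were also counted here (20.6% of all its 27025 genes). In the windows of 250 bases before and 50 after the start, searched on both strands, CCGGAAG (an ETS factor motif) was present in 38.7% of members, 15.4% of the counted genes and 9.93% of all. CCATNTT, a YY1 motif, was present in 32.3%, 16.8% and 18.2%. TATAAA was present in 11.3%, 10.4% and 15.7%, so its order depends on the genes it is set against. GGGCGG, an SP1 motif, was present in 61.3%, 59.3% and 38.2%. A match describes the letters and is no evidence of binding.

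The share of UMIs from the 83 genes differed between the 6 major cell types in every library. It was lowest in neurons, at 0.307% ± 0.039 (SD, n = 6 libraries, as for the shares that follow). Astrocytes stood at 0.513% ± 0.067, OPC, the dividing precursors of myelinating cells, at 0.554% ± 0.095, and oligodendrocytes, which make myelin, at 0.633% ± 0.106. Microglia, the resident immune cells, reached 1.11% ± 0.14, and endothelial cells, which line blood vessels, 2.22% ± 0.36. The mean ratio to neurons of the same library was 1.68 in astrocytes, 1.80 in OPC, 2.06 in oligodendrocytes, 3.63 in microglia and 7.40 in endothelial cells.

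**Figure D1:**
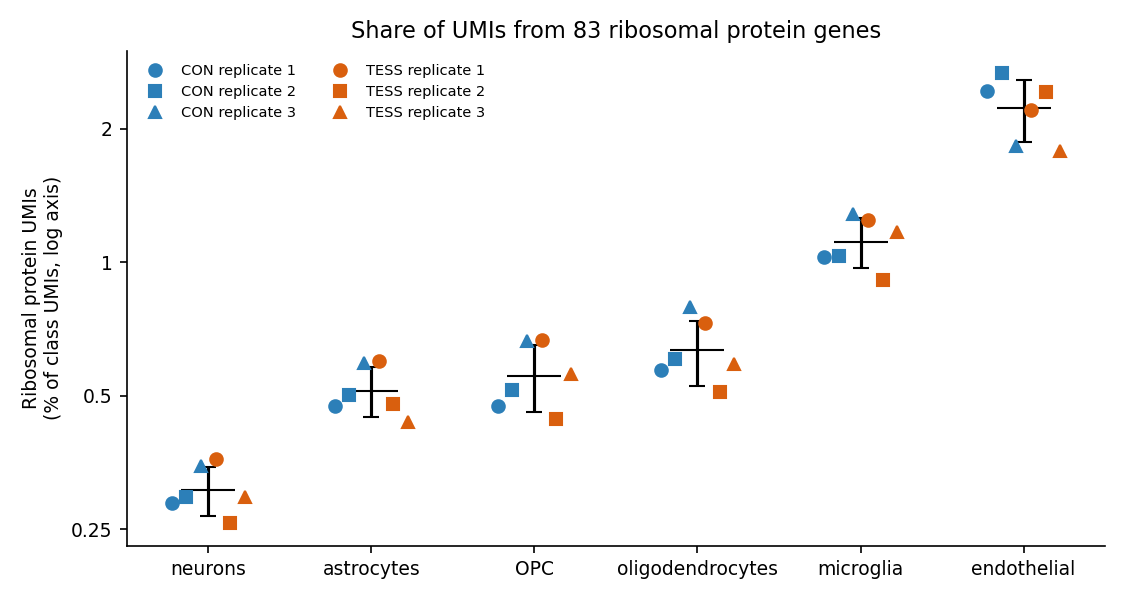
Percent of each class's UMIs from the 83 genes (log axis) in each of 6 libraries, with the mean and SD over libraries as black lines. Neurons lie lowest and endothelial cells highest in every library. CON replicate 3 and TESS replicate 1 lie above the other libraries in all classes except endothelial cells.

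Neighbouring classes in that order kept their order in 6 of 6 libraries, except OPC and astrocytes, whose order held in 5 of 6 and whose mean difference, 0.041 percentage points, was below its SD of 0.058. Oligodendrocytes exceeded OPC by 0.078 percentage points with an SD of 0.034. The spread over single nuclei showed the same classes. The median nucleus held 0.298% in neurons, 1.02% in microglia and 1.96% in endothelial cells, and 83.3% of endothelial, 51.3% of microglial and 0.978% of neuronal nuclei were above 1%.

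The share and the number of molecules per nucleus gave different orders. Neuronal nuclei were the deepest, with 1688 UMIs at the median against 343 in microglia, 433 in oligodendrocytes and 786 in endothelial cells. A neuronal nucleus held 6.01 ± 1.86 ribosomal protein UMIs on average, more than a microglial (4.05 ± 0.94), OPC (3.82 ± 1.29), astrocytic (3.70 ± 1.05) or oligodendrocyte nucleus (3.08 ± 0.86). Endothelial nuclei held 26.2 ± 9.6. The lower neuronal share is thus a share of a larger total, and only endothelial nuclei exceeded neurons on both scales.

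Depth also moved with the share inside a class. When the nuclei of each class and library were split at the median depth, the shallower part had the higher share in 6 of 6 libraries in neurons (0.376% against 0.276%), oligodendrocytes (0.785% against 0.547%) and OPC (0.624% against 0.514%), and in 5 of 6 in astrocytes and microglia. In endothelial cells the shallower part was higher in 2 of 6 libraries. The mean percent of mitochondrial UMIs per nucleus, a measure of cytoplasmic RNA, followed a similar order: 0.179% in neurons, 0.287% in astrocytes, 0.286% in OPC, 0.337% in oligodendrocytes, 0.428% in microglia and 0.940% in endothelial cells. In nuclei without any mitochondrial UMI, an alternative chosen after seeing the data, shares were 0.286% ± 0.037 in neurons, 0.462% ± 0.086 in astrocytes, 0.535% ± 0.075 in OPC, 0.594% ± 0.092 in oligodendrocytes and 1.03% ± 0.13 in microglia. The endothelial share in such nuclei was 0.792% ± 0.394 (n = 5 libraries), below the range over all endothelial nuclei (1.78% to 2.67%) and resting on 30 ribosomal protein UMIs of 3387.

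The endothelial class was small, at 221 nuclei, and mixed. Markers of pericytes and fibroblasts, the cells around vessels, summed to 2822 CPM there, with 0 of 6 markers undetected. Blood and peripheral immune markers, with 3 of 8 at 0, summed to 3480 CPM and ranged from 173 to 9938 between libraries. Of the 888 UMIs behind that sum, 885 were from haemoglobin genes, found in 22.6% of endothelial nuclei. The sum thus says almost nothing of the immune markers in the list. Without the nuclei that held any pericyte or fibroblast marker UMI, 78 nuclei remained with a share of 1.41% ± 0.48 (range 0.801% to 2.02% over libraries), also chosen after seeing the data. Without those holding a blood marker UMI the share was 2.203% ± 0.475. These filters also select shallower nuclei, of 544 UMIs at the median for the former, and the part that each plays in the endothelial value was not tested.

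Single members were then compared with neurons in sums of nuclei per library and class, with library as a block, by edgeR's quasi-likelihood test with Benjamini-Hochberg adjustment over all genes. The low-count filter kept 44 of the 83 members and 4615 genes. A member could pass through the class where it was high, so the counts below are read over all 83 members in the same fit without the filter. In the filtered fit 44 members were higher in oligodendrocytes, 39 in astrocytes, 43 in microglia, 30 in OPC and 44 in endothelial cells, and 0 were lower in any class. The percentages of all genes called higher were 41.3, 33.2, 37.7, 24.7 and 28.9, and those called lower were 37.6, 32, 35.1, 26.2 and 35.3.

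Over all 83 members without the filter, 55 were higher and 4 lower in oligodendrocytes than in neurons, against 20.5% and 28.3% of 19904 genes. In microglia 56 were higher and 2 lower, against 15.1% and 23.6% of genes. In endothelial cells 49 were higher and 2 lower, against 10.8% and 23.8%. In astrocytes 29 were higher and 3 lower, against 12% and 21.1%. In OPC, the smallest glial class, 11 were higher and 1 lower, against 6.45% and 18.2%. The median log2 difference of the 83 members was 0.87 in oligodendrocytes, 1.21 in microglia, 1.70 in endothelial cells, 0.45 in astrocytes and 0.21 in OPC, where the medians of all genes were -0.24, -0.52, -0.97, -0.49 and -0.64. Members without a UMI in a class (5 in endothelial cells, 1 each in microglia and OPC) have fitted values that are no bound. With them set to the floor of 3 counts per class, the medians were 1.83, 1.23 and 0.22 in endothelial cells, microglia and OPC. The medians and percentages of all genes include thinly counted genes too, to which no floor was applied. In the filtered fit the medians of all genes were 0.08, 0.06, -0.19, 0.02 and -0.02 in oligodendrocytes, microglia, endothelial cells, astrocytes and OPC. Those of its 44 members were 1.21, 1.70, 2.63, 0.93 and 0.81.

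**Figure D2:**
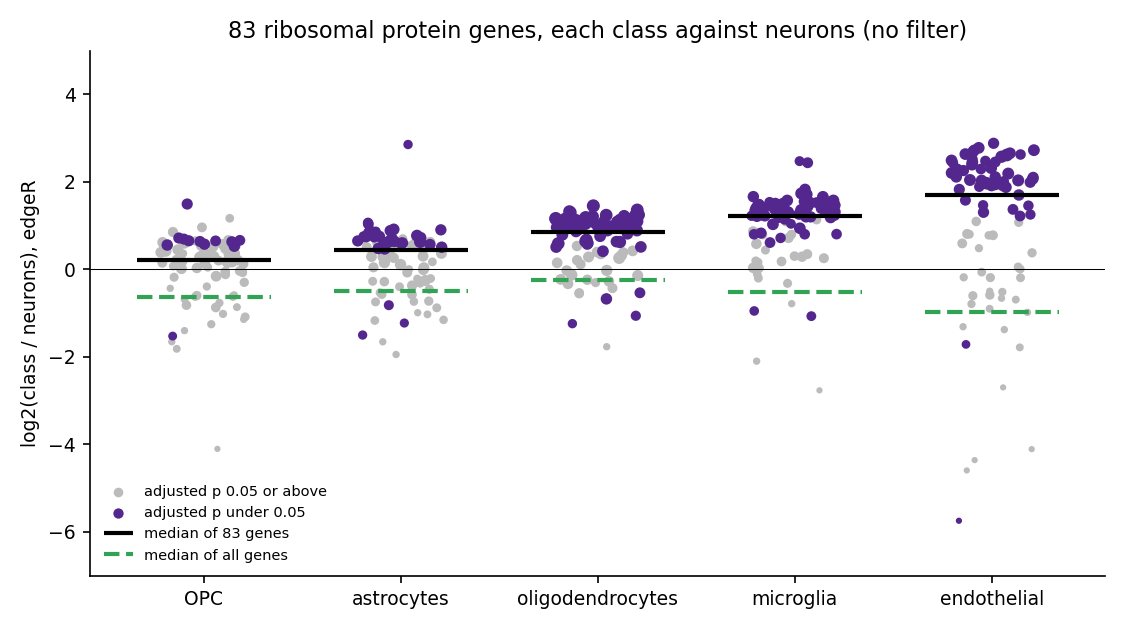
Fitted log2 difference from neurons of each of the 83 genes (points, larger with more UMIs in that class) in the unfiltered edgeR fit, with adjusted p under 0.05 in purple. Black lines are the medians of the 83 genes and dashed green lines those of all genes. The medians of the 83 lie above those of all genes in the 5 classes, and the far negative points are genes with few or no UMIs.

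The difference was spread over many members. In the unfiltered fit 8 members were higher than in neurons in 5 classes, 21 in 4, 18 in 3, 7 in 2 and 8 in 1. Those higher in at least 3 classes had a median of 1523 UMIs in the whole table and at least 348. Members higher in none numbered 21, with a median of 132 UMIs and at most 660. The whole-table count includes the UMIs of the classes where a member is high, so the 2 are not independent, and depth limits what can be said of the thinly counted members. Those higher in every class included the large-subunit genes Rpl4 and Rpl21 and the small-subunit genes Rps4x, Rps14, Rps18, Rps24 and Rps25.

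The small-subunit members had a median log2 difference from neurons, without the filter, of 0.96 in oligodendrocytes, 1.31 in microglia and 2.03 in endothelial cells, where the 51 large-subunit members had 0.63, 1.19 and 1.37. The difference between subunits was not tested. Rps24, a gene mutated in some families with Diamond-Blackfan anaemia, stood at 69.1, 67.3 and 75.3 CPM in neurons of CON replicates 1 to 3 and at 80.9, 53.6 and 73.1 in those of TESS replicates 1 to 3. In oligodendrocytes its values were 159, 172 and 289 in CON and 240, 180 and 185 in TESS. The 2 classes did not overlap. The difference in the filtered fit was 1.58 ± 0.12 on the log2 scale (SE, edgeR, adjusted p = 6.43e-20), the largest of its 44 members in oligodendrocytes. The other members with the largest differences there were Rps25 (1.48), Rps20 (1.45), Rps10 (1.42), Rpl21 (1.37), Rps27rt (1.37), Rps4x (1.36), Rpl30 (1.34), Rpl23 (1.33) and Rpl32 (1.31).

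In microglia Rps20 led the 44 members of the filtered fit, with 2.18 ± 0.21 on the log2 scale (edgeR, adjusted p = 3.55e-15). Its level was 31.7 ± 6.3 CPM in neurons (n = 6) and 167 ± 96 in microglia, where CON replicate 3 and TESS replicate 1 stood highest at 271 and 294. Rps9 (2.09), Rps4x (2.06), Rpl23 (2.01), Rpl6l (2.01), Rps24 (1.92), Rpl21 (1.88), Rpl41 (1.88) and Rplp0 (1.87) were among those that followed.

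In endothelial cells the largest differences included those of Rpl22 (3.40), Rps4x (3.31), Rps19 (3.26), Rps20 (3.25), Rps25 (3.22), Rps27rt (3.20), Rpl41 (3.15), Rps14 (3.11) and Rpl34 (3.02), all on the log2 scale of the filtered fit. Rpl41, which encodes the shortest ribosomal protein, had 189, 215 and 287 CPM in CON neurons and 239, 171 and 190 in TESS neurons. Endothelial values were 2410, 2531 and 2343 in CON and 2080, 2731 and 1728 in TESS. The smallest differences among the 44 were those of Rpl36 (1.75), Rps2 (1.83), Rpl13 (1.89) and Rpl36al (1.97), all of which passed.

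The filtered fit is also used here for astrocytes and OPC. In astrocytes the largest differences included those of Rpl36al (1.35), Rpl21 (1.23), Rps25 (1.22), Rpl23 (1.20), Rps24 (1.19), Rps18 (1.14), Rps14 (1.09), Rpl34 (1.08) and Rps15a (1.06). Rps2, Rplp0, Rpl36, Rps21 and Rps20 did not pass, at 0.06, 0.23, 0.31, 0.36 and 0.60. In OPC Rpl13 stood first with 1.86 ± 0.21 (edgeR, adjusted p = 2.03e-12), at 125, 214 and 188 CPM in CON and 204, 140 and 165 in TESS, against 42.9 ± 11.5 in neurons. Others with large differences were Rplp0 (1.21), Rps24 (1.09), Rps18 (1.06), Rps4x (1.04), Rps10 (1.03), Rpl21 (1.03), Rps25 (1.03) and Rpl4 (1.01). Rplp0 and Rps10 passed in OPC only in the filtered fit.

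The stalk members Rplp0, Rplp1 and Rplp2 encode the acidic proteins of the large subunit's stalk, which recruits elongation factors. In the unfiltered fit Rplp0 was higher than in neurons by 0.76 ± 0.17 in oligodendrocytes, 1.53 ± 0.26 in microglia and 1.89 ± 0.32 in endothelial cells, and Rplp1 by 0.90 ± 0.13, 1.21 ± 0.20 and 1.99 ± 0.24. Rplp2, with 175 UMIs in all, was higher in microglia, by 1.42 ± 0.40. In astrocytes the fitted values were -0.07, 0.37 and 0.05, and none passed.

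Some members have functions outside the ribosome. Rpl5 and Rpl11 bind 5S ribosomal RNA and restrain Mdm2, the inhibitor of p53. Both went against the family. Rpl5 had 36.8 ± 7.0 CPM in CON neurons and 37.9 ± 3.7 in TESS neurons (n = 3 each). In oligodendrocytes it had 30.9, 29.5 and 19.0 in CON and 24.6, 23.8 and 10.9 in TESS, all below the lowest neuronal value of 31.9. In the unfiltered edgeR fit it was lower than in neurons in oligodendrocytes (-0.67 ± 0.17), astrocytes (-0.82 ± 0.32), microglia (-1.07 ± 0.35) and endothelial cells (-1.71 ± 0.55, from 5 UMIs). Rpl11 was lower in astrocytes (-1.50 ± 0.42), OPC (-1.52 ± 0.51) and microglia (-0.95 ± 0.38), from 6 to 13 UMIs per class. The last 400 bases of the Rpl5 transcript were cut into 50-base words, which were searched on both strands. All of these words also occur in the overlapping gene Fam69a, on the same or the opposite strand. Whether strand tells the reads of the 2 genes apart was not tested. For Rpl11 27.1% of the words occurred in another gene.

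In the unfiltered fit Rpl10, Rpl10a, Rpl3, Rpl7a, Rplp2 and Rps16 were higher than in neurons in microglia and in no other class. Rpl10, on chromosome X, had 10.5 ± 2.5 CPM in neurons (n = 6) and 79.3, 92.7 and 76.0 in CON microglia and 62.9, 148 and 75.2 in TESS microglia, a difference of 2.44 ± 0.28. Rpl10a was higher in microglia (1.56 ± 0.34) and lower in oligodendrocytes (-1.06 ± 0.31). Rpl3 was higher in microglia (1.38 ± 0.27) and lower in astrocytes (-1.22 ± 0.46). Rpl7a was higher in microglia (1.23 ± 0.35). It had no UMI in endothelial nuclei, which allows up to 11.8 CPM over the class, a limit just below its 11.9 in neurons. Rps12 had the largest microglial difference after filtering was dropped (2.48 ± 0.48), from 19 UMIs, and was higher in oligodendrocytes too. Whether the microglial difference exceeds that in other classes was not tested. Words of other genes made up 100% of the Rpl10 end, 90.6% for Rpl10a, 83.2% for Rpl3 and 86.0% for Rpl7a.

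Several other members with roles outside the ribosome were counted too thinly to place. Rps6, the substrate of S6 kinase, had 115 UMIs and Rps27a, whose product is a fusion with ubiquitin, had 105, and neither passed in any class. Rpl13a, known from the interferon-gamma-activated GAIT complex, followed the family in the unfiltered fit. Its differences from neurons were 0.64 ± 0.13 in oligodendrocytes, 1.23 ± 0.20 in microglia and 1.83 ± 0.23 in endothelial cells. Its fitted values were 0.32 in astrocytes and 0.03 in OPC, where it did not pass.

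Among the paralogs, Rpl22l1 is known as a stand-in for Rpl22, which represses it, and the calls of the 2 genes differed. The fitted values of both are from the unfiltered fit. Rpl22 was higher than in neurons in oligodendrocytes (0.97 ± 0.16), astrocytes (0.74 ± 0.28), microglia (1.19 ± 0.26) and endothelial cells (2.88 ± 0.24). Rpl22l1 passed in 0 of 5 classes, with fitted differences of 0.26, -0.37, 0.04 and -0.58 in the same order and -0.82 in OPC. In neurons the 2 genes stood at 25.4 ± 3.0 and 32.8 ± 6.9 CPM (n = 6), and in endothelial cells at 309 ± 131 and 33.3 ± 19.8. Endothelial libraries held 511, 312 and 145 of Rpl22 in CON and 193, 374 and 322 in TESS, and 52.4, 34.7 and 54.5 of Rpl22l1 in CON and 0, 28.7 and 29.3 in TESS. The difference between the paralogs was not tested as an interaction. Of the words at the transcript end, 71.5% occur in other genes for Rpl22l1 and 0% for Rpl22, so the 2 counts may not be alike in reliability.

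The paralog values that follow are from the unfiltered fit too. Rps27l, a p53-induced paralog, followed the family: 0.81 ± 0.21 in oligodendrocytes, 1.07 ± 0.35 in astrocytes, 1.54 ± 0.32 in microglia and 2.52 ± 0.34 in endothelial cells. Rpl36al did so in the same 4 classes (1.16, 1.04, 1.48 and 1.46), while its parent Rpl36a had 38 UMIs. Rpl7l1, by contrast, passed in 0 of 5 classes, between -0.57 and 0.38, with 308 UMIs. Its parent Rpl7 was higher in oligodendrocytes (0.87 ± 0.20) and endothelial cells (2.48 ± 0.34). Of the words at the transcript end, 81.5% occur in other genes for Rpl7 and 1.71% for Rpl7l1. The figure was 77.8% for Rpl36al and 100% for Rpl36a. Rpl3l, the striated-muscle paralog of Rpl3, had 27 UMIs in the whole table and was called higher in astrocytes (2.86 ± 0.76) from 10 UMIs.

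Some copies held most of the UMIs of a pair, counted per gene and not divided by length. Rps27rt, an intronless copy of Rps27 on chromosome 9, had 1699 UMIs and Rps27 had 71. Of the 50-base words at the end of Rps27, 73.5% occur in another gene, and 91.1% of those of Rps27rt occur in Rps27. Rpl6l had 968 UMIs and Rpl6 had 83. More than 50% of the words occurred in other genes, on either strand, for 40 of 82 members with a coding transcript, and no word did for 16. How the authors' counting treated reads that match several genes is not given in the sources used here, so values of the 40 are uncertain. Annotation also placed 19 members over another counted gene, on either strand, and 31 hold a small RNA gene inside.

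The members' profiles over the 36 sums (6 libraries by 6 classes) were set against the summed profile of the other members. Pearson's r of log2(CPM + 1) had a median of 0.72 over the 75 members with at least 100 UMIs, and 36 members were above 0.8. Rpl41 (0.98), Rps4x (0.97), Rps14 (0.97) and Rpl14 (0.96) were most alike. Rpl5 (-0.40), Rpl12 (-0.29), Rpl7a (-0.29), Rps27a (-0.28) and Rps6 (-0.27) were least alike. The sums of a library share its depth, and a member's likeness rose with its log2 UMI count (r = 0.87 over 82 members), so a low value at low counts is no sign of a separate pattern. Rpl5 at 599 UMIs, Rpl22l1 at 660 (r = -0.00074) and Rpl36al at 776 (r = 0.037) stood below other members of similar count. Among these, Rps26 at 678 had r = 0.61, Rpl30 at 626 had 0.72 and Rpl22 at 734 had 0.89. Rps3a1 at 541 was low too (r = 0.22). A low r does not mean that no class differed: Rpl36al was called higher than in neurons in 4 classes. It had no UMI in 2 of the 36 sums, Rpl5 and Rpl22l1 in 3 each and Rpl22 in 0, and such sums weigh heavily on the log2(CPM + 1) scale.

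**Figure D3:**
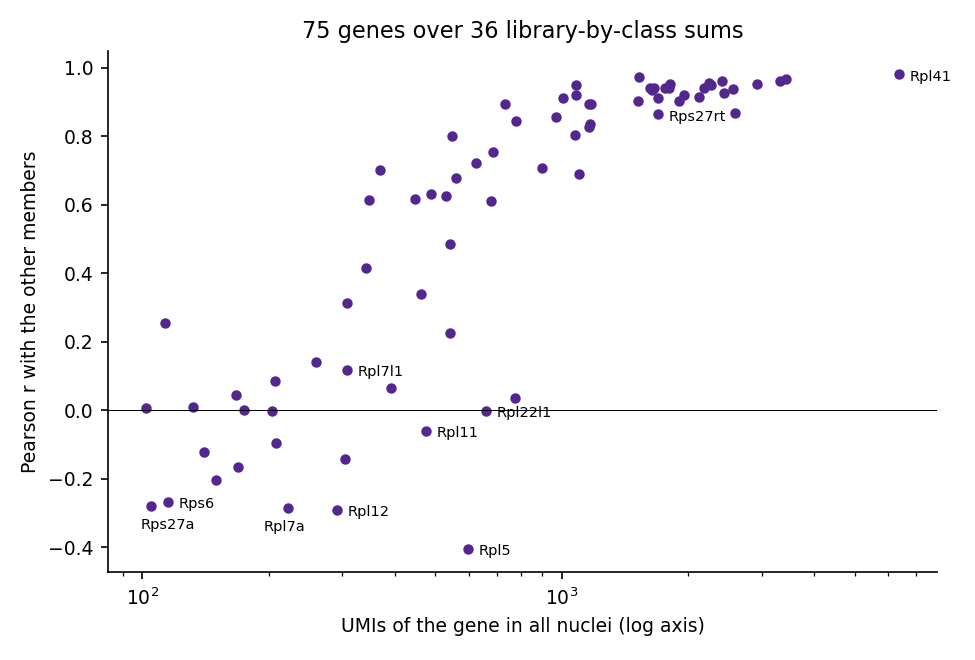
Pearson's r of each of 75 genes with the summed other members over 36 library-by-class sums, against the gene's UMIs (log axis). The genes with the most UMIs lie near the top, up to 0.98 for Rpl41, and Rpl5 lies lowest at -0.40.

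Other genes of the translation machinery were taken from lists that are not made of ribosomal proteins. Without the filter, all 26 elongation, initiation and other 5′ TOP genes were tested against neurons. In oligodendrocytes 17 were higher and 2 lower, in microglia 11 and 2, in endothelial cells 11 and 2, in astrocytes 2 and 3, and in OPC 3 and 2. Their medians were 0.57, 0.41, 0.61, 0.24 and -0.11, where the 83 ribosomal protein genes had 0.87, 1.21, 1.70, 0.45 and 0.21 and all genes -0.24, -0.52, -0.97, -0.49 and -0.64. In the filtered fit, which kept 18 of the 26, the counts were 16 and 0, 15 and 0, 13 and 2, 10 and 1, and 5 and 2. The difference between the 2 lists was not tested. In that fit Eef1a1, the elongation factor that brings aminoacyl-tRNA to the ribosome, was higher by 1.49 ± 0.11 in oligodendrocytes, 2.14 ± 0.15 in microglia and 3.35 ± 0.15 in endothelial cells. Its paralog Eef1a2, the form of neurons and muscle, was lower by -1.29 ± 0.44 in endothelial cells and -0.62 ± 0.25 in astrocytes.

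Of 28 ribosome assembly genes 4 passed the filter. Ncl, which encodes nucleolin, was higher in oligodendrocytes (0.77), microglia (1.00) and endothelial cells (1.94), and Nop56, a core protein of box C/D small nucleolar particles, was lower in all 5 classes (-0.86 to -1.89). Over all 28 without the filter, 6 were higher and 7 lower in oligodendrocytes, 2 and 7 in astrocytes and 4 and 4 in microglia. OPC had 0 and 6, and endothelial cells 3 and 7. Of 18 mTOR pathway genes 10 passed the filter, with 4 higher and 5 lower in oligodendrocytes, 2 and 3 in astrocytes, 2 and 2 in microglia, 1 and 3 in OPC and 4 and 4 in endothelial cells. Without the filter all 18 gave 3 and 7, 1 and 7, 2 and 5, 2 and 8, and 4 and 6 in the same order. Of 76 mitochondrial ribosomal protein genes 4 passed the filter, with 2 higher and 1 lower in oligodendrocytes, 0 and 2 in astrocytes, 1 and 1 in microglia, 0 and 1 in OPC and 1 and 2 in endothelial cells. Without the filter all 76 gave 37 and 9, 9 and 6, 7 and 7, 1 and 8, and 7 and 11 in the same order. Of 79 nuclear genes of oxidative phosphorylation 59 passed the filter. In the filtered fit 48 were higher and 4 lower in oligodendrocytes, 51 and 0 in astrocytes, and 39 and 2 in microglia. OPC had 19 and 1, and endothelial cells 41 and 1, where 41.3%, 33.2%, 37.7%, 24.7% and 28.9% of all genes were higher in the 5 classes. Without the filter all 79 gave 52 and 7, 37 and 0, 30 and 10, 1 and 6, and 29 and 11 in the same order. Of all genes 20.5%, 12%, 15.1%, 6.45% and 10.8% were then higher. Lower were 28.3%, 21.1%, 23.6%, 18.2% and 23.8%. In the filtered fit the median of all genes was 0.06 in microglia and -0.19 in endothelial cells, and the ribosomal protein medians were 1.70 and 2.63. Without composition factors the median of all genes moved to 0.34 and 0.15, and the ribosomal protein medians to 1.99 and 2.97. These factors scale all genes of a sum together, so the distance between the 2 medians could hardly change.

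Within neurons the share varied less than between classes. Of the 38 subtypes named by the authors, 24 had at least 10 nuclei in every library. Their mean shares ran from 0.233% to 0.402%, a ratio of 1.73. Highest were Bnc2 (0.402% ± 0.048), Npy (0.374% ± 0.074), Lxh1/Nxph1 (0.367% ± 0.062), Tac1 (0.366% ± 0.037) and Nts (0.361% ± 0.034). Lowest were V2a/Etl4 (0.233% ± 0.037), V1/Adam23 (0.244% ± 0.031), V1/V2b/Tenm2 (0.260% ± 0.043), Maf/Clbn2 (0.274% ± 0.057) and V1/V2b/Slit2 (0.286% ± 0.014). V1, V2a and V2b are classes of ventral interneurons, and Npy, Tac1 and Nts encode neuropeptides.

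Neighbours in that order lay close: all 23 differences were within 1 SD, and 0 of 23 held in 6 of 6 libraries. Sorting 24 subtypes by mean makes neighbours close, so this does not show that they are alike. V2a/Etl4 was lowest of the 24 in CON replicates 1, 2 and 3 and TESS replicate 3, and Bnc2 was highest in CON replicate 2 and TESS replicates 2 and 3. Across the 24 subtypes, which share libraries, the mean share fell with log2 median UMIs per nucleus (Pearson's r = -0.89) while ribosomal protein UMIs per nucleus rose with it (r = 0.95), and the share rose with the mitochondrial percent (r = 0.75). In the 14 subtypes with under 10 nuclei in some library, values pooled over libraries ran from 0.183% in the 69 nuclei named MN to 0.423% in the 52 named CSF-N. The MN nuclei had a median of 3009 UMIs and the CSF-N nuclei 812.

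**Figure D4:**
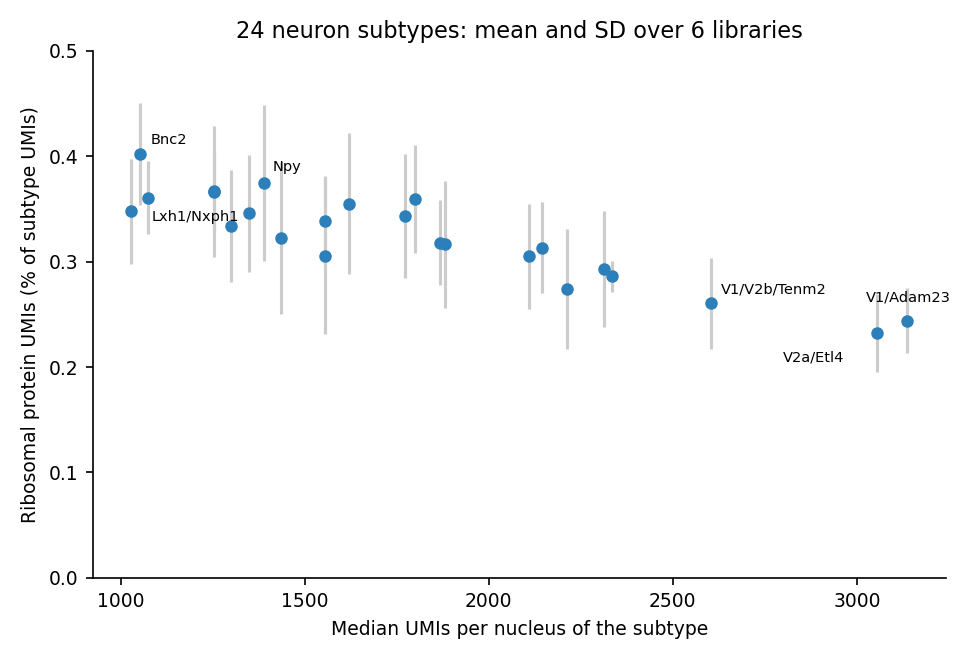
Mean percent of UMIs from the 83 genes in 24 neuron subtypes (points, with SD over 6 libraries) against the subtype's median UMIs per nucleus. Shares lie near 0.35% to 0.40% at the shallow end and at 0.233% and 0.244% in V2a/Etl4 and V1/Adam23, whose nuclei hold over 3000 UMIs at the median.

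TESS against CON was the study's own comparison, made to find the neuron subtypes that TESS recruits. No ribosomal protein gene passed the test in any class (edgeR's quasi-likelihood test on library sums, adjusted p below 0.05). In all nuclei 0 of the 81 members tested were called, where 0.754% of 13391 genes were. In neurons it was 0 of 75 (1.04% of all genes), in oligodendrocytes 0 of 61 (1.65%), in astrocytes 0 of 23 (0.976%), in microglia 0 of 38 (0.6%), in OPC 0 of 11 (0.155%) and in endothelial cells 0 of 30 (1.54%). Against such percentages a count of 0 among 11 to 81 members is near the background. DESeq2 also called 0 members in each class. At an unadjusted p under 0.05 there were 5, 5, 4, 2, 0, 0 and 2 members in the same order, where 14.9%, 14.7%, 14.4%, 11.6%, 11.9%, 8.92% and 15.3% of all genes were.

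The shares overlapped between the groups in every class. In neurons CON libraries had 0.286%, 0.295% and 0.346% and TESS libraries 0.360%, 0.258% and 0.295%. In oligodendrocytes CON had 0.572%, 0.605% and 0.792% and TESS 0.728%, 0.510% and 0.589%. In microglia CON had 1.03%, 1.03% and 1.28% and TESS 1.24%, 0.913% and 1.17%. The spread lay between single libraries: CON replicate 3 and TESS replicate 1 were the highest pair in each of these classes and TESS replicate 2 the lowest. Endothelial cells had another order, with CON at 2.44%, 2.67% and 1.83% and TESS at 2.203%, 2.42% and 1.78%. In astrocytes the group means were 0.523% ± 0.062 and 0.504% ± 0.084, and in OPC 0.552% ± 0.100 and 0.557% ± 0.112 (SD, n = 3 each).

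Single members repeated this pattern. In all nuclei TESS replicate 2 was the lowest library for 38 of the 81 members tested, while it was lowest for 23.5% of all genes, and CON replicate 3 or TESS replicate 1 was the highest for 24 members each, where 10.1% and 14.8% of genes were highest. The groups did not overlap for 4 of 81 members in all nuclei, where 20.4% of genes did not. In neurons it was 5 of 75 (19.6% of genes), in oligodendrocytes 4 of 61 (19.6%), in astrocytes 4 of 23 (16.6%), in microglia 1 of 38 (17.4%), in OPC 0 of 11 (13.3%) and in endothelial cells 3 of 30 (22.6%). The mitochondrial percent of nuclei and the library's batch number differ between libraries too, and their part in this was not tested.

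The median log2 change of the tested members was -0.08 in all nuclei, -0.05 in neurons, -0.13 in oligodendrocytes, -0.05 in astrocytes, -0.01 in microglia, 0.02 in OPC and -0.19 in endothelial cells. The medians of all genes were between -0.03 and 0.00042. Within batch 3, with CON replicates 1 and 2 against TESS replicate 1 alone, the medians were 0.21, 0.21, 0.21, 0.30, 0.18, 0.45 and -0.29 in the same order, and 0 members were called. The lone TESS library is assumed there to vary like the others, and the filter then kept other members (33 in astrocytes, 48 in microglia and 29 in OPC). With batch as a term, over the same members as in the full comparison, the medians were 0.21, 0.22, 0.21, 0.33, 0.21, 0.23 and -0.31. CON replicate 3 and TESS replicates 2 and 3 are each alone in their batch. The change in that fit therefore also rests on TESS replicate 1 against CON replicates 1 and 2, and is no separate adjustment. The same holds for the values of single members with batch as a term below. Without TESS replicate 2 the medians in all nuclei and neurons were 0.05 and 0.07, and without CON replicate 3 they were 0.02 and 0.02. In all nuclei and neurons the sign of the family's median thus depended on single libraries. With 1 library left out it ranged from -0.31 to 0.02 in oligodendrocytes and from -0.22 to 0.03 in astrocytes. The range was -0.17 to 0.16 in microglia, -0.15 to 0.25 in OPC and -0.27 to -0.08 in endothelial cells.

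**Figure D5:**
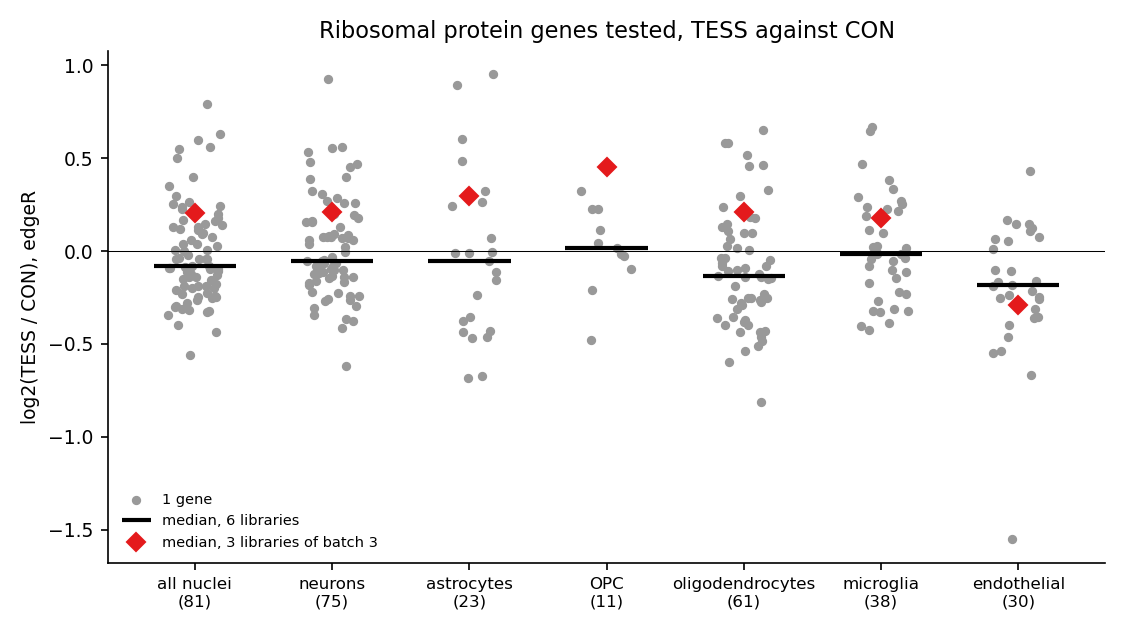
Fitted log2 change from CON to TESS of each ribosomal protein gene tested (grey points; number of genes in brackets), with the median over 6 libraries as a black line and the median within the 3 libraries of batch 3 as a red diamond. The black lines lie between -0.19 and 0.02, and the diamonds lie above 0 in every class except endothelial cells.

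The member nearest to passing was Rps19, a small-subunit gene often mutated in Diamond-Blackfan anaemia, in endothelial cells. It had 1022, 1144 and 545 CPM in CON and 501, 230 and 264 in TESS, from 78, 33, 30, 13, 8 and 9 UMIs. The groups did not overlap, with CON replicate 3 and TESS replicate 1 close together, and the log2 change was -1.55 ± 0.37 (edgeR, adjusted p = 0.0596). It passed the threshold in 3 alternatives: without the low-count filter (-1.63), in nuclei of at least 500 UMIs (-1.54) and with replicate numbers as a block (-1.52). Pericyte and fibroblast markers ranged from 2288 to 3190 CPM in CON and from 2157 to 3162 in TESS endothelial cells, and blood markers from 173 to 2997 and from 977 to 9938. The test of the change in endothelial cells against that in neurons gave an adjusted p of 0.251. Rpl32 (-0.67), Rpl14 (-0.55), Rps4x (-0.54) and Rpl29 (-0.47) were the other members with the smallest p below zero there. Above zero stood Rps27rt (0.43), Rps15 (0.15), Rps25 (0.12), Rps15a (0.14) and Rpl37 (0.17). None of these passed.

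Rps26, a small-subunit gene that lies near the exit of the messenger RNA, had 60.7, 66.5 and 65.4 CPM in CON oligodendrocytes and 41.4, 32.5 and 38.1 in TESS oligodendrocytes. All TESS values lay below all CON values, and the log2 change was -0.81 ± 0.23 (edgeR, adjusted p = 0.0807). It was -0.51 in nuclei of at least 500 UMIs. In all nuclei it was -0.56 ± 0.18 (adjusted p = 0.153), and -0.25 with batch as a term and -0.26 within batch 3. Rpl29 (-0.54), Rps25 (-0.44) and Rpl32 (-0.36) were also among the lowest p below zero in oligodendrocytes, and Rpl35a (0.58), Rpl3 (0.65), Rps27rt (0.46), Rpl7 (0.58) and Rpl39 (0.46) were the 5 with the smallest p above zero.

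Rpl35a, a large-subunit gene, moved the other way in neurons, at 7.72, 17.7 and 13.1 CPM in CON and 23.3, 26.8 and 24.4 in TESS. The groups did not overlap, and CON replicate 1 was lowest. The log2 change was 0.92 ± 0.27 (edgeR, adjusted p = 0.108) in neurons and 0.79 ± 0.22 (adjusted p = 0.103) in all nuclei. It passed in both without the low-count filter, and in neurons with the replicate block. In neurons Rpl39 (0.56), Rps27rt (0.53), Rps28 (0.38) and Rpl7 (0.47) came next above zero, and Rps18 (-0.36), Rps10 (-0.41), Rpl29 (-0.38), Rpl15 (-0.62) and Rps19 (-0.34) had the smallest p below zero. In all nuclei these were Rps27rt (0.56), Rpl39 (0.50), Rpl7 (0.60) and Rps12 (0.63), and, below zero after Rps26, Rpl29 (-0.40), Rps19 (-0.44), Rps18 (-0.25) and Rpl22l1 (-0.30). In Rpl35a 68.7% of the end words, and in Rps26 68.1%, occur in other genes.

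Rpl23 was first in astrocytes, with 83.8, 82.9 and 82.7 CPM in CON and 121, 230 and 134 in TESS. The groups did not overlap and the change was 0.95 ± 0.35 (edgeR, adjusted p = 0.206), from 9 to 21 UMIs per library. It was 0.58 without TESS replicate 2, 0.50 with batch as a term and 0.47 within batch 3. Rps27rt had fitted changes of 0.89 in astrocytes and 0.67 in microglia, and so was among the highest 5 of the members tested in 6 of the 7 fits. It did not pass in any, and its CON replicate 1 was lowest in all nuclei, at 46.0 CPM against 78.7 to 146 in the other libraries. Its change in all nuclei (0.56) and neurons (0.53) was 0.27 and 0.25 without CON replicate 1, 0.36 and 0.33 without TESS replicate 1, and 0.90 and 0.91 without CON replicate 2. Within batch 3 it was 0.87 and 0.80, and with batch as a term 0.88 and 0.80. The class fits share nuclei with the fit of all nuclei. After Rpl23 and Rps27rt, Rpl8 (0.60), Rpl4 (0.48) and Rpl37 (0.32) had the smallest p above zero in astrocytes, and Rpl41 (-0.47), Rpl32 (-0.68), Rpl34 (-0.68), Rpl14 (-0.43) and Rps24 (-0.47) below it.

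In microglia Rpl13a (0.65), Rps10 (0.38), Rps20 (0.47) and Rpl23 (0.33) came after Rps27rt, and Rpl26 (-0.40), Rps25 (-0.43), Rpl8 (-0.31) and Rpl36al (-0.39) were among the smallest p below zero. In OPC, where 11 members were tested, the members named are Rps15 (0.32), Rpl14 (0.23), Rps14 (0.23), Rpl8 (0.11) and Rpl41 (0.05) above zero and Rpl32 (-0.48), Rps24 (-0.10), Rpl13 (-0.02) and Rps21 (-0.02) below it. None of these passed.

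The change with TESS was also compared between neurons and each other class as an interaction. The filter kept 52 members, and 0 were called in oligodendrocytes (1.5% of 5940 genes), astrocytes (0.0168%), microglia (0.0337%), OPC (0.101%) or endothelial cells (0.0168%). At an unadjusted p under 0.05 there were 0, 2, 1, 2 and 1 members of 52, where 9.81%, 5.72%, 7.47%, 4.97% and 7.73% of all genes were. Without CON replicate 3, 1 member was called in endothelial cells. In each of the 24 neuron subtypes 0 to 16 members passed the filter. None was called, where 0.0828% of all gene tests were. Of 76 member tests in 18 subtypes, 3 had an unadjusted p under 0.05. The mean share was higher in TESS in 15 of the 24 subtypes, and the groups did not overlap in 2. CON replicate 3 or TESS replicate 1 was the highest library in 20 subtypes and TESS replicate 2 the lowest in 13.

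Among the other lists, 5 genes passed with TESS. Ddit4, an inhibitor of mTOR that glucocorticoids and stress induce, rose in oligodendrocytes from 45.8, 22.8 and 35.7 CPM in CON to 107, 82.2 and 120 in TESS, a log2 change of 1.53 ± 0.24 (edgeR, adjusted p = 0.00134). In all nuclei it rose by 1.01 ± 0.22 (adjusted p = 0.0469). In oligodendrocytes 1.65% of all genes were called, in astrocytes 0.976% and in all nuclei 0.754%. Of 72 oxidative phosphorylation genes tested in oligodendrocytes 3 fell and 0 rose, where 51 of all 8796 genes fell. These 3 were Ndufa4, by 0.84, Atp5g1, by 0.79, and Cox6a1, by 0.65 on the log2 scale. The list's medians were -0.28 in all nuclei, -0.23 in neurons, -0.36 in oligodendrocytes and -0.28 in astrocytes. They were -0.40 in microglia, -0.27 in OPC and -0.45 in endothelial cells. Ndufa4, which encodes a small subunit of the respiratory chain, also fell in astrocytes, by 1.05. Nop10, a core protein of box H/ACA particles that modify ribosomal RNA, fell in oligodendrocytes by 1.10. Values of these 5 genes with batch as a term or within batch 3 are not reported here. Of the other 5′ TOP genes 0 passed in any class. Their medians were -0.13 over 26 tested in all nuclei, -0.06 over 25 in neurons, -0.13 over 25 in oligodendrocytes, 0.02 over 12 in microglia, -0.08 over 5 in astrocytes, 0.32 over 4 in OPC and -0.04 over 3 in endothelial cells. Of the mitochondrial ribosomal protein genes 0 of 75 passed in all nuclei, 0 of 75 in neurons, 0 of 68 in oligodendrocytes and 0 of 1 in microglia, and none was tested in the other classes.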

How the data were processed

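The deposited table holds UMI counts per gene and nucleus, and a deposited metadata table gives each nucleus its library, batch, major type and neuron subtype and the fraction of mitochondrial UMIs. Per the submitters' processing notes, Cell Ranger 2.2.0, Seurat 3 and the builds mm10 and GRCm38 were used. The sources used here do not state filters on nuclei, doublet removal, strand or whether introns were counted.

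Counts were summed per library and class, or per library and neuron subtype where no library had under 10 nuclei. Sums were tested with edgeR 4.0.16 (R 4.3.3; TMM factors, filterByExpr with a minimum count of 10, quasi-likelihood test, Benjamini-Hochberg adjustment over all genes, threshold 0.05), with DESeq2 1.42.0 as an alternative. Class contrasts and interactions carried the library as a block. The scripts were tested on simulated data. Sequences are from RefSeq and gene models from GENCODE, both on GRCm38. The members, the other gene lists and the tests were chosen with earlier results of these data known.

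Named were up to 10 called members with the largest change per fit and direction, or, with fewer than 5 called, the 5 with the smallest p. Rplp0 to Rplp2, Rps6, Rpl5, Rpl11, Rpl13a, Rpl41, Rps27a, the paralogs and the 5 members of lowest likeness were always named, as were the 5 highest and 5 lowest subtypes. Rpl12, Rpl23a, Rpl3, Rpl10, Rpl10a, Rpl7a, Rps12, Rplp2 and Rps16 as microglial or contrary members, and Rpl6l, were singled out after their values were seen. Values of a few members that the rule would name are not reported here.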

Additional observations from a re-analysis of the deposited data

How the results depend on the processing

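The settings were run for the 10 members per class with the largest called difference from neurons. With 1 library left out each kept its direction and call wherever it was tested. Rplp0 in microglia and OPC did not pass the filter without CON replicate 1 or 2, so it was not tested there. Under the other settings the direction changed in 3 cases, given below. Without the low-count filter the number of members called in OPC was 12 in place of 30, and Rplp0 (0.86) and Rps10 (0.67) no longer passed there. For TESS against CON the number of members called was 0 in each class. Without the filter it became 1 in all nuclei and in neurons (Rpl35a) and 1 in endothelial cells (Rps19), and with nuclei of at least 500 UMIs 1 in endothelial cells (Rps19). With the replicate number as a block it was 1 in neurons (Rpl35a) and 1 in endothelial cells (Rps19). Calls with batch as a term are left out here, because TESS replicate 1 is then the only TESS library that bears on the change. Same-numbered libraries of the 2 groups deviated together with correlations of -0.15 to 0.33, not over 0.1 for every number in any class. So few pairs cannot show whether the numbers pair the libraries. Leaving out 1 library gave 0 to 1 members for the endothelial interaction (Rps19, without CON replicate 3) and 0 for TESS against CON in every class and subtype.

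With nuclei of at least 500 UMIs the share was 0.385% in all nuclei, 0.503% in oligodendrocytes and 1.45% in microglia. The microglial value rests on TESS replicate 3, where 2 such nuclei remained and 1 of them held 51 ribosomal protein UMIs. As a mean over nuclei the share in all nuclei was 0.620%. The endothelial share was 0.792% in nuclei without a mitochondrial UMI, 1.41% in those without a pericyte or fibroblast marker UMI and 1.40% in those without that or a blood marker UMI. On nuclei without a mitochondrial UMI, added after seeing the data, 15 members passed the filter against neurons. The number called was 15 in oligodendrocytes, 7 in astrocytes, 15 in microglia and 3 in OPC, all higher. In endothelial cells it was 2, Rpl41 and Rps15, both fitted lower from 0 UMIs, but 1 library held no such nucleus and the rest 3387 UMIs, and all genes had a median of -5.17. Rps27rt (-0.74, from 1 UMI), Rps14 (-0.70, from 2) and Rpl41 (-7.54, from 0, no bound) changed direction there. Among the members named, Rps14 in astrocytes (0.39) and Rps24 in OPC (0.73) no longer passed. Depth limits the thinly counted members and the small classes: in OPC 11 of 83 members could be tested for a change with TESS.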
